A study of Mus musculus with 26 samples.

Results

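The proteasome genes of the mouse, those with a Psm symbol for a subunit of the 20S core, the 19S cap, an activator, the inhibitor or a dedicated assembly chaperone, were followed in microglia sorted from 2 brain regions of stressed and unstressed mice. RefSeq names 48 such genes, of which 47 had a probe on the array (57 probes) and 45 were bright enough to test, out of 24738 genes tested in all. To be tested, a gene needed a probe that cleared the scanner software's background limit in 3 or more arrays of some group, and its brightest probe on average stood for it. The accession list paired no probe with Psme2, so it was not analysed here, and the probes of Psma8 and Psmb11 did not do so in any group. On all 26 arrays 35 of the 45 genes were well above background. None of the 45 passed the threshold (adjusted p under 0.05) in any comparison between groups, and the intervals given with the values show how large a change each could still hide.

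The proteasome is the barrel-shaped protease that degrades proteins tagged with ubiquitin. Its 20S core stacks outer rings of alpha subunits on inner rings of beta subunits, and the 19S cap unfolds tagged proteins with a ring of ATPases. In the constitutive core the proteolytic subunits are beta1 (Psmb6), beta2 (Psmb7) and beta5 (Psmb5). Interferon gamma induces replacements for them, beta1i (Psmb9), beta2i (Psmb10) and beta5i (Psmb8), and a core built with these is called the immunoproteasome, which is known for making peptides that fit MHC class I. Microglia, the resident macrophages of the brain, are among the brain cells known to express immunoproteasome subunits.

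All mice carried 1 EGFP allele in place of CX3CR1 (CX3CR1EGFP/+), on a C57BL/6 background, so that cells which use the Cx3cr1 promoter glow green. No further allele is given for the wild-type groups, and the TLR-DKO groups carried CX3CR1EGFP/+ together with a double knockout of Toll-like receptors, which the labels do not name. Stressed mice went through R-SDS (repeated social defeat stress), repeated defeat by an aggressor mouse, and naive mice were moved between cages instead. In the labels, susceptible stands for stressed wild-type mice and resilient for stressed TLR-DKO mice, so behaviour and genotype are 1 split. Perfusion came 1.5 hours after the last session. Green cells were sorted from 1.5 mm punches of the mPFC (medial prefrontal cortex) or of the NAc (nucleus accumbens). Each sample pooled the cells of 3 to 6 mice and its picogram amount of RNA was amplified before it was labelled with Cy3 and hybridised to 1 array. The labels give no age. From the mPFC came 3 naive and 3 stressed samples of wild-type mice and 4 naive and 3 stressed samples of TLR-DKO mice. From the NAc came 3 of each for wild-type mice, and 3 naive and 4 stressed samples for TLR-DKO mice. Other cells that use the Cx3cr1 promoter, such as macrophages at the border of the brain, can pass the same gate. A lower value in such a sorted pool can come from fewer cells of a type or from less RNA per cell, and these cannot be told apart.

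Values are log2 of the spot signal relative to the array's own 75th percentile, so 0 is the level that 75% of spots stay below, a step of 1 is a doubling, and differences between groups are log2 differences. The 75th percentile ran from 80.7 to 340.5 signal units and the share of spots well above background from 50% to 71%. Tlr2 lay between 0.62 and 2.68 on the wild-type arrays and between -4.60 and -3.46 on the TLR-DKO arrays with no overlap. Tlr4 did not separate the genotypes, and whether its probe lies in a deleted part is not known. All 10 microglia markers were measured, at a summed level of 10.21 to 11.77 per array, while the 8 perivascular macrophage markers summed to 2.68 to 4.14 in wild-type naive mPFC and -1.82 to 1.93 in wild-type naive NAc, where 3 of them (Cd163, Lyve1 and Ms4a7) were not well above background on any array. Because Cd163, Lyve1 and F13a1 could be tested only through mPFC groups, no difference between regions is read from these sums. Replicate 3 of wild-type mPFC R-SDS and replicate 1 of TLR-DKO mPFC naive stood apart from the other arrays (weights of 0.25 and 0.47 where an average array has about 1), and differences of single genes that are over 0.5 in size and moved by over 1.5 times without these arrays are also given without them. The arrays were scanned on 2 days, and both days hold every group. Slides 1 (mPFC) and 3 (NAc) were scanned on day 1 and slides 2 (mPFC) and 4 (NAc) on day 2. Within a region, scan day and slide are therefore the same split.

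Each comparison was one contrast in a limma fit of all 26 arrays, and the p-value was adjusted over the 24738 genes. The stress effect was not called for any of the 45 proteasome genes in wild-type mPFC, where 0.00808% of all genes were called, in TLR-DKO mPFC (0%), in wild-type NAc (0%) or in TLR-DKO NAc (0.00808%). The genotype effect, TLR-DKO minus wild-type, called 0 of 45 in naive mPFC (0.0121% of all genes), stressed mPFC (0.0121%), naive NAc (0.0121%) and stressed NAc (0.00808%). It was also 0 of 45 for the stress effect averaged over genotype and region (0%), the averaged genotype effect (0.0202%), the averaged region effect, NAc minus mPFC (0.897%), and the interaction of stress and genotype in mPFC (0%) and NAc (0%). At an unadjusted limma p under 0.05, the stress effect took 2 of 45 genes in wild-type mPFC against 5.9% of all genes, 5 in TLR-DKO mPFC against 5.07%, 0 in wild-type NAc against 2.93% and 0 in TLR-DKO NAc against 3.04%. For the genotype effect these counts were 3 in naive mPFC (5.69% of all genes), 3 in stressed mPFC (5.84%), 0 in naive NAc (3.3%) and 1 in stressed NAc (4.03%). That 1 gene was Psmg3, which could be tested only through the groups where it was high, so nothing is read from it. The averaged stress effect took 2 (5.47%), the averaged genotype effect 0 (8.23%), the region effect 1 (15.4%), the mPFC interaction 3 (6.09%) and the NAc interaction 0 (2.52%). The highest share was that of TLR-DKO mPFC, 11.1% of the 45, and the stress and genotype comparisons share groups, so their values are set side by side and not counted together. Of the 157 differences over 0.5 in size among the 45 genes in the single stress and genotype comparisons, 126 shrank by over 1.5 times without 1 of the arrays, and 37 of these changed sign. In simulated data with the spread of these arrays, a log2 change of 1 in wild-type mPFC R-SDS was recovered for 2% of genes and a change of 2 for 26%. A change of 4 or -4 was recovered for 70% to 76%, so most changes of 2 or less would have been missed.

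The 3 immunoproteasome genes did not move together. Psmb9 was higher in wild-type mPFC after R-SDS, Psmb8 was lower in TLR-DKO mPFC after R-SDS, and Psmb10 showed neither, and none of these differences passed the adjusted threshold. Psmb8 and Psmb9 lie on chromosome 17 in the MHC region, in the order Psmb9, Tap1, Psmb8, Tap2 with the genes of the peptide transporter, whereas Psmb10 lies on chromosome 8. Their promoter windows, 250 bases before to 50 after the RefSeq start (build GRCm38.p6), are shown because these genes are the contrast of interest and are known targets of interferon signalling. Psme1 is shown with them as the interferon-inducible activator gene. Capitals mark a match to TTCNNNGAA (a letter pattern of STAT sites), GAAANNGAA (a pattern of interferon response elements) or CCAAT, on either strand. The NF-kappaB consensus had no match in these windows.
Psmb8, chr17:34197945-34198244, + strand: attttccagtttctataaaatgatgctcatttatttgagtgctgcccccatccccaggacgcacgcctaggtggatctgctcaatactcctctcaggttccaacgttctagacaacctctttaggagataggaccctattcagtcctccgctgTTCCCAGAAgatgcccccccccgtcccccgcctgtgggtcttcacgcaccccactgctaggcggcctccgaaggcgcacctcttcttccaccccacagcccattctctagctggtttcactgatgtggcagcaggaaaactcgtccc
Psmb9, chr17:34187281-34187580, - strand: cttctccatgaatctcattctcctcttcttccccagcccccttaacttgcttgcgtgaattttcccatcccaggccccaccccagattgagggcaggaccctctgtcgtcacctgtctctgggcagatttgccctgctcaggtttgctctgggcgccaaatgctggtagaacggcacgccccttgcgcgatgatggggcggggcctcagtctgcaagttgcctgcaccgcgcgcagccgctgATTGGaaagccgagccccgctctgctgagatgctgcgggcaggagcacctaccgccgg
Psmb10, chr8:105938343-105938642, - strand: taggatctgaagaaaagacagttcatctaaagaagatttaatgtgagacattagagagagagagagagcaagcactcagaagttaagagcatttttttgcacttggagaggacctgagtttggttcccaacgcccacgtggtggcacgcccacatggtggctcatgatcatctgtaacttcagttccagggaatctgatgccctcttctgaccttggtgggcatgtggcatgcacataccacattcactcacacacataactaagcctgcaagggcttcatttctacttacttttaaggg
Psme1, chr14:55578244-55578543, + strand: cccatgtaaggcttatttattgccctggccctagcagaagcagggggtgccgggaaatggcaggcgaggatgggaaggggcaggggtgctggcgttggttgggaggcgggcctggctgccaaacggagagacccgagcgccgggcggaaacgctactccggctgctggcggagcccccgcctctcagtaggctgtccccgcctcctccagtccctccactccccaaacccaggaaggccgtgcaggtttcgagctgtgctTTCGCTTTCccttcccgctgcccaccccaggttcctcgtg

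The match in Psmb8 is TTCNNNGAA at bases -97 to -89 from the start, a pattern that reads the same on both strands. It stands in 3 of the 38 proteasome genes with a window (Psmb8, Psmd2 and Psmg1) and in 8.3% of all 32841 windows. Psmb9 holds CCAAT on its opposite strand at bases -8 to -4, and 13 of the 38 genes and 37.4% of all windows hold it on either strand. GAAANNGAA stands in Psme1 at bases 10 to 18, after the start, and in 7 of the 38 genes against 8.56% of all windows. No window of the immunoproteasome genes holds it, which says only that these letters are not in these 300 bases. The NF-kappaB consensus stands in 6 of the 38 genes and 8.46% of windows, and TGANNNNGC, the core of antioxidant elements read by Nrf factors, in 21 of the 38 and 41.3%. The windows of Psmb9 and Tap1 share 275 bases, since these genes are read in opposite directions from starts 226 bases apart.

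Psmb8 encodes beta5i, the chymotrypsin-like subunit of the immunoproteasome. In wild-type mPFC it was 2.55, 3.01 and 2.66 on the naive arrays and 0.87, 2.44 and 3.17 after R-SDS. By contrast, in TLR-DKO mPFC it was 3.09, 3.34, 3.68 and 3.90 on the naive arrays and 2.62, 1.32 and 2.29 after R-SDS. All 3 stressed TLR-DKO arrays of the mPFC thus lay below all 4 naive ones, while the wild-type groups overlapped. Wild-type NAc arrays gave 3.46, 1.28 and 2.57 without stress and 2.63, 3.16 and 2.36 with it, and TLR-DKO NAc arrays gave 2.48, 3.52 and 3.72 without stress and 2.99, 2.04, 2.61 and 3.36 with it. Both pairs of NAc groups overlapped. The log2 difference between R-SDS and naive in TLR-DKO mPFC was -1.43 ± 0.53 (SE), with a 95% interval of -2.53 to -0.33, and its adjusted p was 0.919 (limma; unadjusted p = 0.0136). Among naive mPFC samples, all 4 TLR-DKO arrays were above all 3 wild-type arrays, by 0.76 ± 0.53 (SE) (adjusted p = 0.936, limma), so that group shares in both differences. The stress difference was -0.58 in wild-type mPFC (-1.08 without the 2 outlying arrays), 0.28 in wild-type NAc and -0.49 in TLR-DKO NAc. Within the slides, the TLR-DKO mPFC difference was -1.12 on slide 1 and -1.35 on slide 2, and leaving out 1 array at a time gave -1.70 to -1.05. Its interaction with genotype was -0.85 ± 0.77 (SE) in the mPFC, with an adjusted p of 0.864 (limma), and -0.48 without the 2 outlying arrays. The 8 markers of dendritic cells and MHC class II summed to 3.04 to 6.98 in TLR-DKO naive mPFC and 1.89 to 3.63 after R-SDS, and the 8 perivascular macrophage markers to 4.14 to 6.0 and 3.17 to 3.62. The 6.98 came from replicate 1, an outlying array, and the other naive arrays, at 4.80, 3.04 and 3.77, overlapped the stressed ones. The dendritic and MHC class II set had a median difference of -1.18 there. No median is given for the perivascular set and nothing is read from its sums here, since Cd163 and Lyve1 could be tested only through TLR-DKO naive mPFC. The part of both sets in the Psmb8 values was not tested.

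Psmb9 encodes beta1i, which takes the place of the caspase-like subunit. Wild-type mPFC arrays gave 1.73, 2.82 and 3.06 without stress and 3.48, 3.44 and 4.40 with it. The 3 stressed arrays lay above the 3 naive ones. On the other hand, TLR-DKO mPFC arrays gave 3.70, 3.46, 4.18 and 2.41 without stress and 3.30, 3.29 and 3.95 with it, with overlap. The naive wild-type arrays of the NAc were at 4.15, 3.87 and 3.76 and the stressed ones at 3.64, 4.03 and 2.40, and the naive TLR-DKO arrays were at 3.81, 3.59 and 3.99 and the stressed ones at 3.66, 3.14, 3.25 and 3.21, and these groups overlapped too. The wild-type mPFC stress difference was 1.24 ± 0.46 (SE), with a 95% interval of 0.29 to 2.19, and its adjusted p was 0.830 (limma; unadjusted p = 0.0132). Without replicate 3 of wild-type mPFC R-SDS, which held the highest Psmb9 value of the 26 arrays, it was 0.92 (adjusted p = 0.999, limma), and without replicate 1 of the naive group it was 0.83. It was 1.19 on slide 1 and 1.34 on slide 2, where each group has 1 array. The wild-type naive mPFC mean, 2.54 ± 0.71 (SD, n = 3), was the lowest of the 8 groups, and the TLR-DKO minus wild-type difference among naive mPFC samples was 0.90 ± 0.43 (SE), with a 95% interval of 0.01 to 1.79, and its adjusted p was 0.878 (limma; unadjusted p = 0.0481). The other stress differences were 0.08 in TLR-DKO mPFC, -0.58 in wild-type NAc and -0.48 in TLR-DKO NAc. Perivascular macrophage markers summed to 2.68 to 4.14 in wild-type naive mPFC and 3.58 to 5.76 after R-SDS, and their part in the Psmb9 values was not tested.

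Psmb10 encodes beta2i, the trypsin-like subunit. The naive wild-type arrays of the mPFC were at 1.91, 3.35 and 2.70 and the stressed ones at 3.24, 3.14 and 1.97, and the naive TLR-DKO arrays were at 2.58, 3.29, 2.47 and 1.97 and the stressed ones at 2.70, 2.85 and 1.69. For wild-type NAc the values were 2.32, 2.29 and 2.03 in naive and 2.19, 0.67 and 2.47 in stressed samples, and for TLR-DKO NAc they were 2.98, 2.22 and 1.74 in naive and 2.25, 2.23, 2.89 and 2.17 in stressed samples. R-SDS and naive arrays overlapped in all 4 pairs. The stress differences were 0.13 in wild-type mPFC, -0.16 in TLR-DKO mPFC, -0.44 in wild-type NAc and 0.07 in TLR-DKO NAc. The averaged stress effect was -0.10 ± 0.24 (SE) with a 95% interval of -0.61 to 0.41, so a 2-fold change of the average lay outside it in both directions. The region effect was -0.44 ± 0.24 (SE), lower in the NAc, with an adjusted p of 0.404 (limma).

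**Figure D1:**
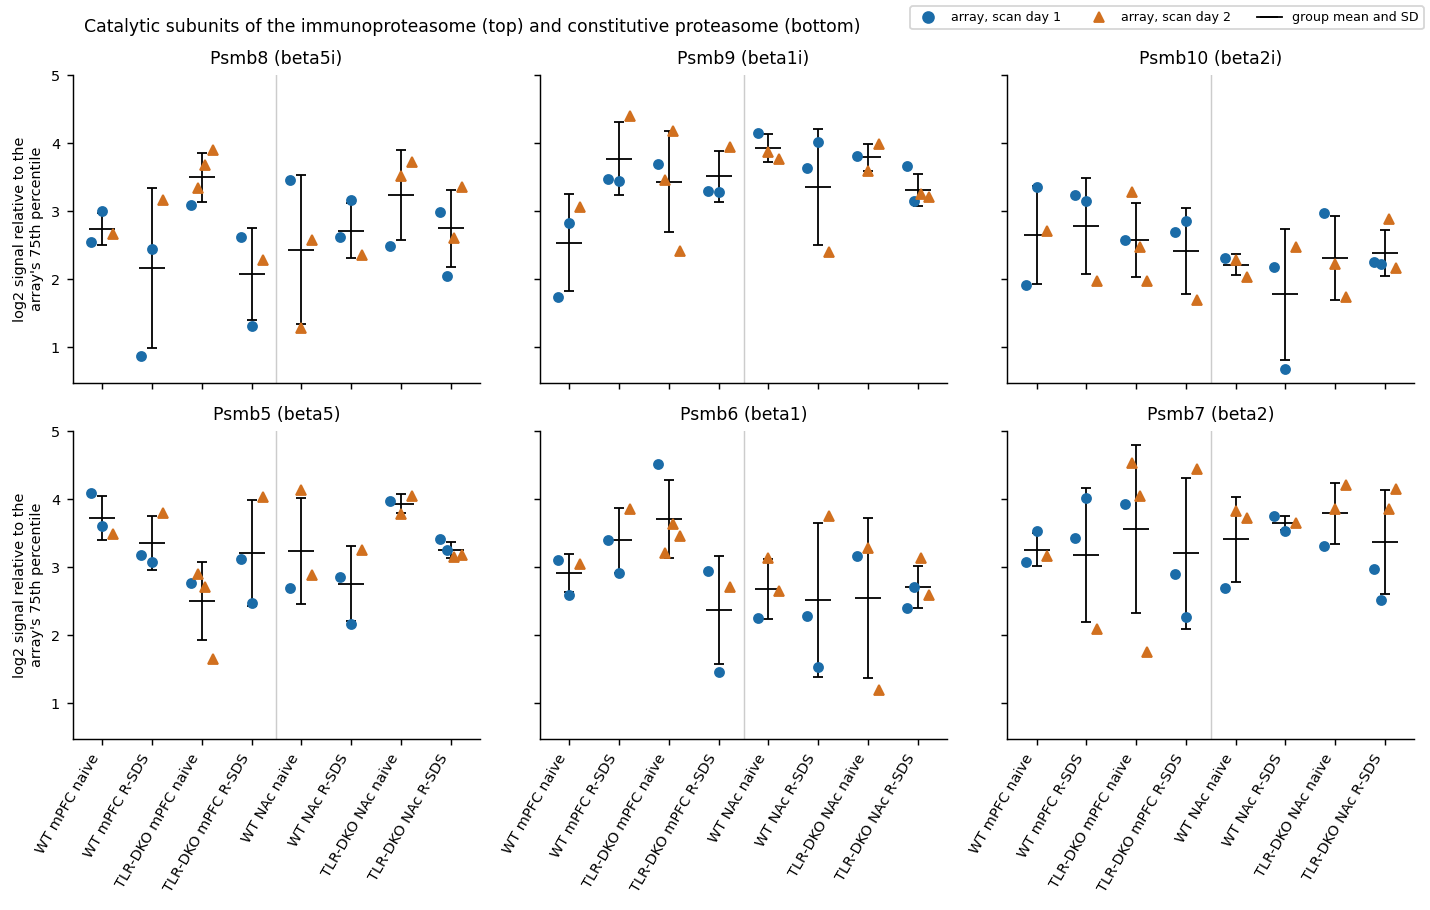
Scaled log2 signal of each array (y) of the immunoproteasome subunits Psmb8, Psmb9 and Psmb10 (top) and the constitutive subunits Psmb5, Psmb6 and Psmb7 (bottom) in the 8 groups (x). Points are arrays, coloured by scan day, and bars are the group mean and SD. Psmb8 is lower on all 3 stressed than on all 4 naive arrays of TLR-DKO mPFC, and Psmb9 is higher on all 3 stressed than on all 3 naive arrays of wild-type mPFC.

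Among the constitutive catalytic genes, Psmb5 (beta5, the partner that Psmb8 replaces) had the smallest p of all 45 genes in naive mPFC. For wild-type mPFC the values were 4.10, 3.61 and 3.48 in naive and 3.18, 3.08 and 3.80 in stressed samples, and for TLR-DKO mPFC they were 2.77, 2.90, 2.70 and 1.65 in naive and 3.13, 2.47 and 4.03 in stressed samples. In wild-type NAc it was 2.69, 4.14 and 2.89 on the naive arrays and 2.85, 2.16 and 3.26 after R-SDS, and in TLR-DKO NAc it was 3.97, 3.78 and 4.05 on the naive arrays and 3.41, 3.26, 3.15 and 3.19 after R-SDS. All 4 naive TLR-DKO arrays of the mPFC were below all 3 naive wild-type arrays, and the difference was -1.22 ± 0.40 (SE), with a 95% interval of -2.06 to -0.38, and its adjusted p was 0.719 (limma; unadjusted p = 0.00654). Without replicate 4 of TLR-DKO mPFC naive, the lowest of the 26 arrays for this gene, it was -0.94 (adjusted p = 0.878, limma). The other Psmb5 probe gave -0.77, and the probes had r = 0.57 over the 26 arrays. In the naive NAc the sign was opposite, 0.70. There the 3 naive TLR-DKO arrays, at 3.78 to 4.05, lay above all 4 stressed ones, at 3.15 to 3.41, a difference of -0.68 ± 0.40 (SE) with an adjusted p of 1.00 (limma). The stress differences of Psmb5 were -0.37, 0.70, -0.48 and -0.68 in wild-type mPFC, TLR-DKO mPFC, wild-type NAc and TLR-DKO NAc.

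Psmb6 is beta1, the caspase-like subunit that Psmb9 replaces. In wild-type mPFC it was 3.11, 2.60 and 3.05 on the naive arrays and 3.41, 2.91 and 3.86 after R-SDS, and in TLR-DKO mPFC it was 4.52, 3.22, 3.63 and 3.46 on the naive arrays and 2.94, 1.46 and 2.71 after R-SDS. Wild-type NAc arrays gave 2.25, 3.14 and 2.64 without stress and 2.28, 1.53 and 3.75 with it, and TLR-DKO NAc arrays gave 3.17, 3.28 and 1.19 without stress and 2.40, 2.71, 3.14 and 2.58 with it. In the mPFC all 3 stressed TLR-DKO arrays were below all 4 naive ones, as for Psmb8, and the difference was -1.34 ± 0.53 (SE), with a 95% interval of -2.44 to -0.23, and its adjusted p was 0.919 (limma; unadjusted p = 0.0199). Without the 2 outlying arrays, 1 of which held the highest Psmb6 value, it was -1.07 (adjusted p = 0.706, limma). The naive TLR-DKO arrays were also above all 3 naive wild-type arrays, by 0.79 (0.52 without the outlying array). The interaction of stress and genotype in mPFC was -1.82 ± 0.78 (SE), adjusted p = 0.810 (limma).

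Psmb7 (beta2, trypsin-like) overlapped between R-SDS and naive in every pair. Wild-type mPFC arrays gave 3.08, 3.54 and 3.16 without stress and 3.43, 4.02 and 2.09 with it, and TLR-DKO mPFC arrays gave 3.93, 4.54, 4.05 and 1.76 without stress and 2.90, 2.27 and 4.44 with it. The naive wild-type arrays of the NAc were at 2.70, 3.83 and 3.72 and the stressed ones at 3.75, 3.54 and 3.66, and the naive TLR-DKO arrays were at 3.31, 3.86 and 4.21 and the stressed ones at 2.97, 2.51, 3.85 and 4.15. Its differences were -0.08 in wild-type mPFC, -0.36 in TLR-DKO mPFC, 0.23 in wild-type NAc and -0.42 in TLR-DKO NAc. Within naive TLR-DKO mPFC alone it spanned 1.76 to 4.54, a wider range than any difference between group means of this gene.

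The balance of the sets was taken on each array as the mean of Psmb8, Psmb9 and Psmb10 minus the mean of Psmb5, Psmb6 and Psmb7. Because probes differ in brightness, its level has no meaning by itself and only its change between groups is read. In the mPFC it was -0.66 ± 0.62 (SD, n = 3) in wild-type naive, -0.40 ± 0.38 (SD, n = 3) in wild-type R-SDS, -0.09 ± 0.45 (SD, n = 4) in TLR-DKO naive and -0.26 ± 0.76 (SD, n = 3) in TLR-DKO R-SDS samples. In the NAc the same groups had -0.25 ± 1.0 (SD, n = 3), -0.36 ± 0.70 (SD, n = 3), -0.31 ± 0.28 (SD, n = 3) and -0.30 ± 0.23 (SD, n = 4). The 8 means spanned less than the range within several single groups, since naive wild-type NAc alone ran from -1.22 to 0.77. No test was run on it, since its 6 genes were chosen with results known. Psmb8 minus Psmb5 was the pair of matched active sites that differed most. It was -1.54, -0.60 and -0.83 in wild-type naive mPFC, 0.32, 0.44, 0.98 and 2.25 in TLR-DKO naive and -0.50, -1.15 and -1.75 in TLR-DKO R-SDS samples. The naive TLR-DKO arrays were above both other groups without overlap, and this pair was picked out after the values were seen.

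**Figure D2:**
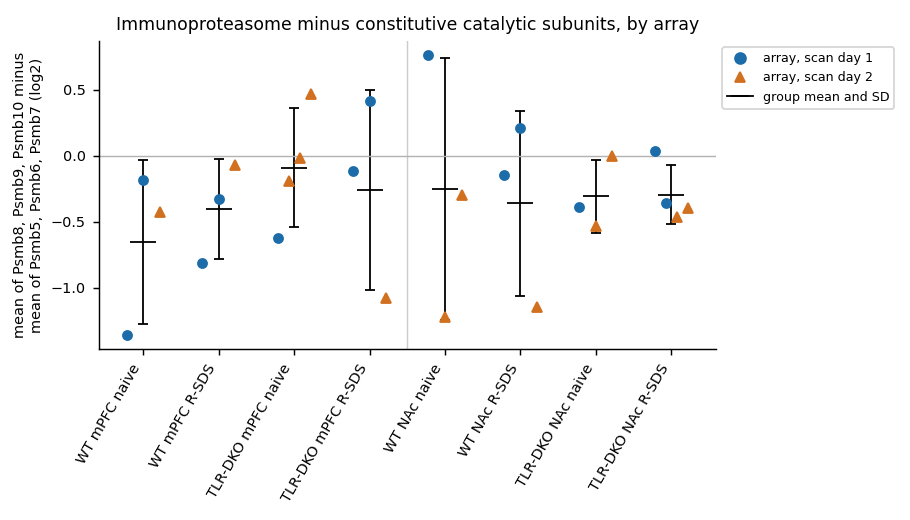
Mean of the immunoproteasome genes minus mean of the constitutive catalytic genes on the log2 scale (y) for the 8 groups (x). Points are arrays by scan day, bars the group mean and SD. The arrays of all 8 groups overlap, from -1.36 to 0.77.

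The alpha ring genes Psma1 to Psma7, which form the gate of the core, were mixed. After R-SDS 4 of 7 were above 0 in wild-type mPFC (median 0.44), 2 of 7 in TLR-DKO mPFC (-0.22), 2 of 7 in wild-type NAc (-0.32) and 2 of 7 in TLR-DKO NAc (-0.24), and none was called. Psma7 had the smallest p of the ring between genotypes, with 0.95 ± 0.41 (SE) in naive mPFC (adjusted p = 0.836, limma), from 3.84, 3.19 and 4.06 on the wild-type to 3.95, 4.33, 5.54 and 4.76 on the TLR-DKO arrays, which overlapped. After R-SDS it was -0.87 in TLR-DKO mPFC, and its interaction there was -1.39 ± 0.60 (SE) (adjusted p = 0.810, limma). Psma1 had the smallest p of the ring in the averaged genotype effect (0.46), Psma2 in the region effect (-0.37) and Psma5 for stress in TLR-DKO NAc (0.74, and 0.13 without replicate 3 of the naive group), none called. The 4 structural beta genes Psmb1 to Psmb4 were all above 0 after R-SDS in wild-type mPFC (median 0.65, against 0.17 for all genes) and 1 of 4 was above 0 in TLR-DKO mPFC (median -0.34). Without replicate 2 of wild-type mPFC R-SDS Psmb2 was at -0.28. The 4 of 4 held under every scaling tried, with medians of 0.47 to 0.65. The Psmb4 values were 5.05, 5.57 and 4.75 in wild-type naive and 4.92, 5.44 and 7.04 in wild-type R-SDS mPFC, so 1 array, replicate 3 of the stressed group, stood well above the others. The same array enters the genotype difference of Psmb4 in stressed mPFC, -1.04 ± 0.46 (SE) (adjusted p = 0.786, limma), which was -0.42 without it. Psmb4 was also the member with the smallest p between regions, at -0.62 ± 0.22 (SE), with a 95% interval of -1.08 to -0.16, and its adjusted p was 0.191 (limma; unadjusted p = 0.0111). Without the 2 outlying arrays that was -0.47 (adjusted p = 0.302, limma), and with slide as a random block, since each slide holds 1 region, the adjusted p was 0.863.

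The 6 ATPases of the 19S cap (Psmc1 to Psmc6) unfold substrates and push them into the core. They had the same sign after R-SDS in both TLR-DKO pairs of groups, but not in the wild-type pairs. All 6 were below 0 after R-SDS in TLR-DKO mPFC (median -0.80, all genes -0.05), in TLR-DKO NAc (-0.38, all genes -0.02) and in the averaged stress effect (-0.49, all genes 0.04). In the wild-type groups 5 of 6 were below 0 in mPFC and 3 of 6 in NAc. These counts use the brightest probe of each gene. In TLR-DKO NAc the other Psmc3 probe gave 0.24, against -0.44 for the probe used, while the other probes of Psmc1 and Psmc2 were below 0. Under quantile normalization 5 of 6 were below 0 in TLR-DKO NAc, and under the other scalings tried, with scan day in the fit and without the 2 outlying arrays, all 6 stayed below 0 in the 3 comparisons. Leaving out 1 array at a time moved Psmc6 to at most 0.11 in TLR-DKO mPFC (without replicate 2 of the stressed group), 0.24 in TLR-DKO NAc (without replicate 1 of the naive group) and 0.06 in the averaged effect (without replicate 3 of wild-type mPFC R-SDS), and Psmc5 to 0.12 in TLR-DKO NAc (without replicate 2 of the stressed group), while the other 4 stayed below 0. The averaged effect includes the TLR-DKO comparisons, so it is not a separate observation. Psmc5 had the smallest p of the averaged stress effect among the 45, -0.53 ± 0.21 (SE), with a 95% interval of -0.97 to -0.08, and its adjusted p was 0.887 (limma; unadjusted p = 0.0220). Its group means were 3.26 and 2.41 in wild-type mPFC, naive and stressed, and 2.97 and 2.27 in TLR-DKO mPFC. The averaged differences of the other ATPases were -0.46 for Psmc1, -0.17 for Psmc2, -0.59 for Psmc3, -0.67 for Psmc4 (-0.35 without the 2 outlying arrays) and -0.44 for Psmc6, all with intervals that include 0. Psmc2 was the ATPase with the smallest p in the NAc, where its stress difference was 0.82 in wild-type and -0.34 in TLR-DKO samples, its naive genotype difference 0.91 and its interaction -1.15 ± 0.68 (SE) (adjusted p = 1.00, limma). Without replicate 1 of wild-type NAc naive, the wild-type stress difference, the naive genotype difference and the interaction were 0.27, 0.36 and -0.60. Psmc3 had the smallest p of the ATPases in the averaged genotype effect, at 0.64 ± 0.35 (SE), but its other probe gave -0.09. Psmc6 was well above background on 25 of the 26 arrays and the other ATPases on all.

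Among the 11 other 19S subunits, the lid and base genes that bind and strip ubiquitin, the largest stress difference was that of Psmd11 (Rpn6), a lid subunit that braces the cap on the core. The naive wild-type arrays of the mPFC were at 0.95, 0.51 and 1.36 and the stressed ones at -2.02, 0.05 and -2.48, and the naive TLR-DKO arrays were at -0.72, 0.57, 1.01 and -0.17 and the stressed ones at 0.05, -0.99 and 1.66. For wild-type NAc the values were 0.53, 0.97 and 1.60 in naive and 0.31, -0.10 and -1.43 in stressed samples, and for TLR-DKO NAc they were -0.64, -0.72 and -0.27 in naive and 0.50, -0.79, -1.26 and 1.65 in stressed samples. In both wild-type regions the stressed arrays lay below the naive ones without overlap, while the TLR-DKO groups overlapped. The wild-type mPFC difference was -2.42 ± 0.76 (SE), with a 95% interval of -4.01 to -0.83, and its adjusted p was 0.830 (limma; unadjusted p = 0.00462). It was -1.44 ± 0.76 (SE) in wild-type NAc, 0.07 in TLR-DKO mPFC and 0.57 in TLR-DKO NAc. The test of the difference between genotypes gave 2.49 ± 1.04 (SE) in mPFC (adjusted p = 0.810, limma) and 2.01 ± 1.04 (SE) in NAc (adjusted p = 1.00). Without replicate 3 of wild-type mPFC R-SDS, the lowest of the 26 arrays, the wild-type mPFC difference was -1.92 (adjusted p = 0.999, limma). The probe is dim on some arrays, well above background on 25 of 26, and with another background correction (normexp) the difference was -1.44. Over all 11 genes 8 of 11 were above 0 in wild-type mPFC, 5 of 11 in TLR-DKO mPFC, 5 of 11 in wild-type NAc and 4 of 11 in TLR-DKO NAc, with medians of 0.28, -0.08, -0.01 and -0.30. Replicate 3 of wild-type mPFC R-SDS was the highest of the 26 arrays for Psmd1, Psmd3 and Psmd4 (4.40, 7.22 and 6.71). The other stressed arrays there had 1.17 and 1.70, 1.69 and 3.32, and 4.70 and 4.99. Naive arrays had 0.53, 1.75 and 2.48 for Psmd1, 3.30, 4.26 and 3.83 for Psmd3, and 4.50, 4.74 and 5.85 for Psmd4. The wild-type mPFC count thus leans on that array for these genes, while it was the lowest of the 26 for Psmd8 and Psmd14. The averaged stress effect of Psmd11 was -0.81 ± 0.37 (SE), and its genotype difference was 1.72 in stressed mPFC and -1.58 in naive NAc. The genotype difference of Psmd13 in stressed NAc was -1.49 ± 0.97 (SE), with an adjusted p of 0.997 (limma), and the region effect of Psmd8 was 0.54 ± 0.29 (SE) (adjusted p = 0.385), or 0.34 without the 2 outlying arrays. Psmd14, the enzyme that cuts ubiquitin chains off the substrate, was near background on several arrays (well above it on 23 of 26) and ranged from -4.26 to 1.46.

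**Figure D3:**
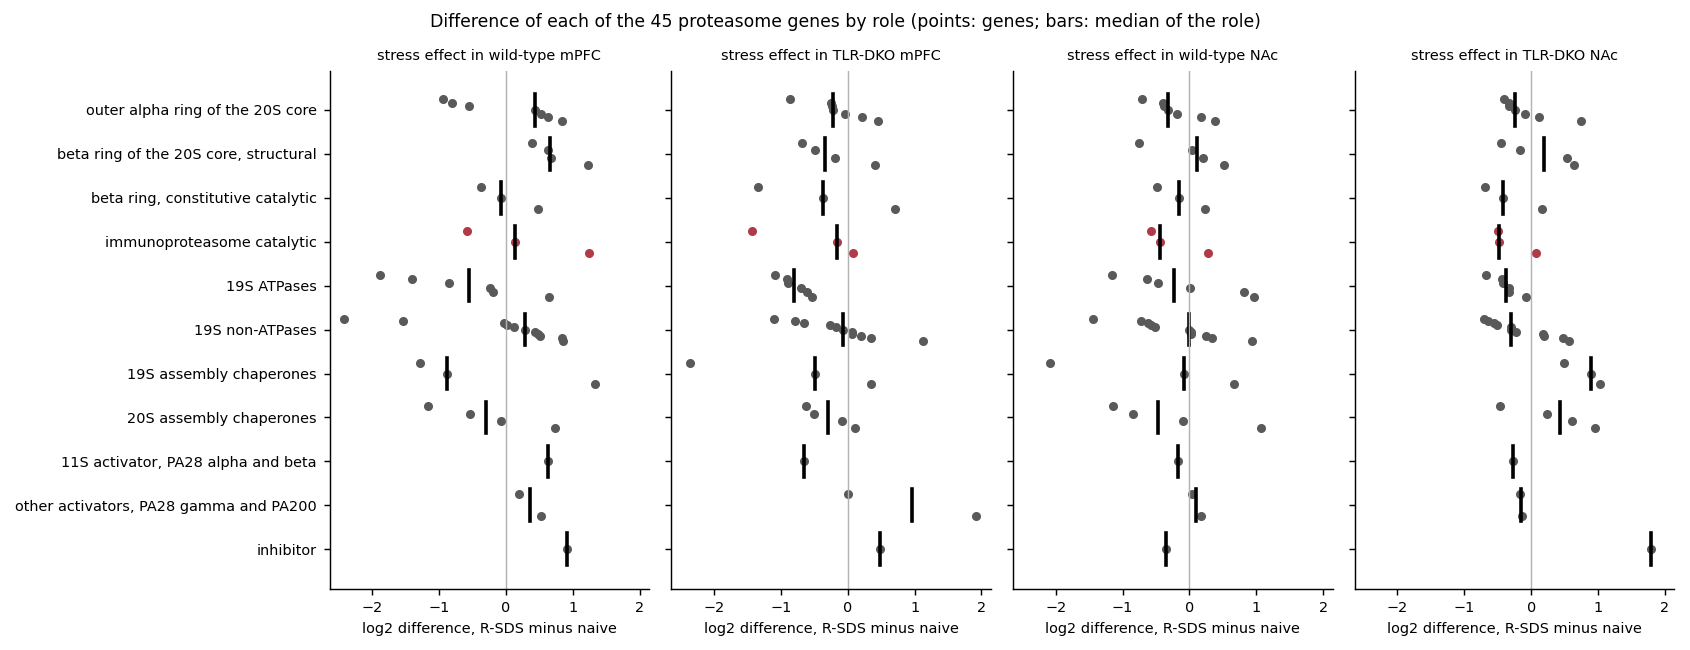
Log2 difference between R-SDS and naive samples (x) of each of the 45 proteasome genes, by role (y), in the 4 pairs of groups. Points are genes, red for the immunoproteasome genes, and vertical bars are role medians. By the brightest probe of each gene, all 6 ATPases lie below 0 in both TLR-DKO panels, and all 4 structural beta genes lie above 0 in wild-type mPFC.

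Of the activators, Psme1 (PA28 alpha), which interferon induces with the immunoproteasome, differed between R-SDS and naive by 0.63 in wild-type mPFC, -0.65 in TLR-DKO mPFC, -0.17 in wild-type NAc and -0.26 in TLR-DKO NAc. Without the 2 outlying arrays the mPFC differences were 0.12 and -1.03. For wild-type mPFC the values were 3.53, 3.78 and 4.67 in naive and 3.79, 4.43 and 5.66 in stressed samples, and for TLR-DKO mPFC they were 3.62, 5.39, 5.18 and 4.84 in naive and 3.49, 3.88 and 4.94 in stressed samples. In wild-type NAc it was 2.92, 4.99 and 4.48 on the naive arrays and 3.25, 3.56 and 5.06 after R-SDS, and in TLR-DKO NAc it was 3.25, 5.07 and 4.85 on the naive arrays and 3.43, 3.15, 5.16 and 4.77 after R-SDS. In each of the 8 groups the low values were those of scan day 1 and the high values those of scan day 2. All 13 arrays of day 1 were between 2.92 and 4.43 (mean 3.54 ± 0.38, SD, n = 13) and all 13 of day 2 between 4.48 and 5.66 (mean 5.0 ± 0.31, SD, n = 13). With scan day in the fit, the 4 stress differences became 0.63, -0.01, 0.34 and -0.01, and the naive mPFC genotype difference went from 0.76 to 0.13. Of these groups, TLR-DKO naive mPFC has 3 of its 4 arrays on day 2 and wild-type naive mPFC 1 of its 3.

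Scan day was tested across all genes beside the 8 groups, in a fit added after these values were seen. It called 10 of the 45 proteasome genes (22.2%), 9 of them higher on day 2, and 18% of all 24738 genes, so the share was near that of all genes. Psmd4 (Rpn10, a ubiquitin receptor of the cap) was the other gene whose arrays did not overlap between days, at 3.32 to 4.99 on day 1 and 5.51 to 6.71 on day 2. The difference was 1.53 ± 0.13 (SE) for Psme1 and 1.63 ± 0.14 for Psmd4, each with an adjusted p of 7.87e-07 (limma). The others higher on day 2 were Psmc3 (1.21), Psmd2 (0.93), Psmd1 (1.27), Psmd7 (1.09), Psmc2 (0.70), Psmd3 (1.21) and Psma7 (0.56), and Psmg2 was lower (-1.25). The immunoproteasome genes were not among them, with 0.24 for Psmb8 (adjusted p = 0.605), -0.01 for Psmb9 (0.985) and -0.22 for Psmb10 (0.600). Within a region each slide was scanned on 1 day. The labels name 2 independent experiments but do not say which samples belong to which, so scan day, slide and experiment cannot be told apart. With scan day in the fit, 0 of the 45 genes were called in the 13 comparisons by limma, with 0 to 5 per comparison at an unadjusted p under 0.05, and the smallest adjusted p was 0.0698 (Psmd4, region effect, -0.48).

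**Figure D4:**
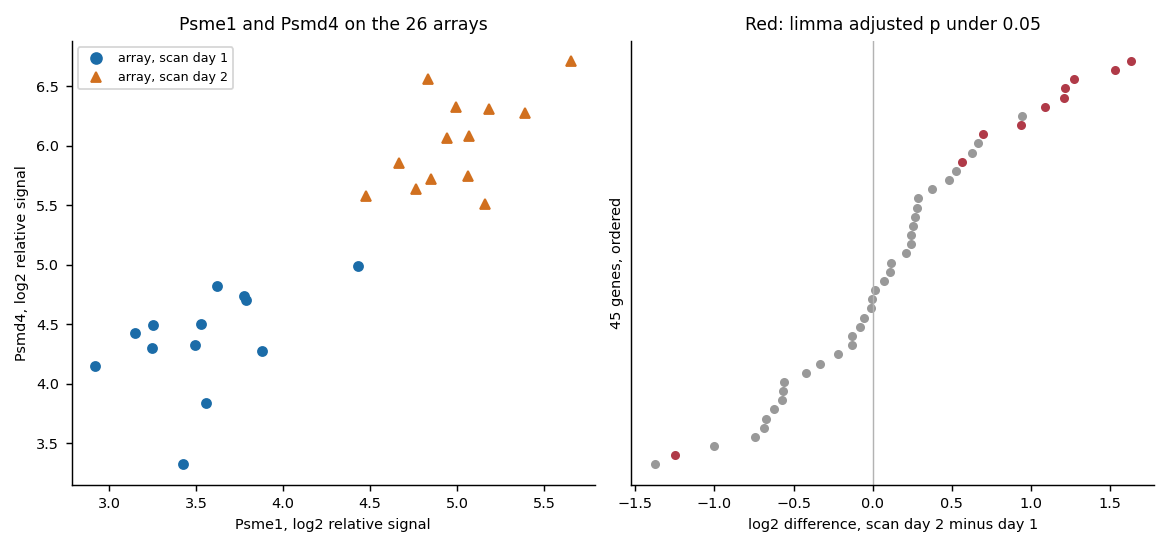
Left, Psme1 (x) against Psmd4 (y) on the 26 arrays, log2 relative signal, coloured by scan day. Right, the log2 difference between scan days (x) of each of the 45 genes, in order, with the 10 past an adjusted limma p of 0.05 in red. The 2 days form separate clouds on the left, and Psme1 and Psmd4 are the rightmost points at 1.53 and 1.63.

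Psme4 (PA200, a single-chain activator) was higher after R-SDS in TLR-DKO mPFC by 1.93 ± 0.78 (SE), with a 95% interval of 0.30 to 3.55, and its adjusted p was 0.919 (limma; unadjusted p = 0.0227). In wild-type mPFC it was 0.55, 0.80 and 0.20 on the naive arrays and 0.89, 0.21 and 1.03 after R-SDS, and in TLR-DKO mPFC it was -0.38, -0.67, 0.45 and -0.43 on the naive arrays and 0.93, 3.94 and 0.14 after R-SDS. Wild-type NAc arrays gave 1.21, -0.21 and -0.17 without stress and 1.02, -0.02 and 0.33 with it, and TLR-DKO NAc arrays gave 2.11, 0.72 and -1.39 without stress and 1.27, -0.39, -0.67 and 1.18 with it. The highest value, replicate 2 of TLR-DKO mPFC R-SDS at 3.94, stood far from the other 2 of its group, and the difference was 0.79 without it (adjusted p = 1.00, limma), and the groups overlapped. The other Psme4 probe gave 0.63, and the probes had r = -0.11 over the 26 arrays. Psme3 (PA28 gamma, the nuclear activator) had the smallest spread of the 45 genes, with an SD between arrays of a group of 0.31 and group means from 8.72 to 9.24. Its stress differences were 0.52 ± 0.30 (SE) in wild-type mPFC (0.19 without replicate 3 of the stressed group, and 0.02 under quantile normalization), 0.00 in TLR-DKO mPFC, 0.04 in wild-type NAc and -0.16 in TLR-DKO NAc. For the averaged stress effect its 95% interval was -0.21 to 0.41.

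Psmf1 (PI31), the inhibitor, was dim and well above background on 21 of 26 arrays. Wild-type mPFC arrays gave -2.28, -2.83 and -2.94 without stress and -2.80, -2.90 and 0.37 with it, and TLR-DKO mPFC arrays gave -5.82, -5.82, -1.90 and -2.41 without stress and -2.0, -5.17 and -3.37 with it. The naive wild-type arrays of the NAc were at -2.61, -3.41 and -0.96 and the stressed ones at -2.23, -3.0 and -2.81, and the naive TLR-DKO arrays were at -2.84, -2.73 and -3.68 and the stressed ones at -0.32, -1.53, -0.54 and -2.76. The largest stress difference was in TLR-DKO NAc, 1.80 ± 0.99 (SE), with a 95% interval of -0.26 to 3.86, and its adjusted p was 1.00 (limma; unadjusted p = 0.0834). The chaperones that assemble the 20S rings, Psmg1 to Psmg4, and those of the 19S base, Psmd5, Psmd9 and Psmd10, varied more between arrays of a group than the median of the 45 genes (0.89), with an SD of 0.91 (Psmd9) to 2.05 (Psmg4). Psmg3 was well above background on 15 of 26 arrays, all 7 of TLR-DKO NAc, 1 of 3 in each wild-type NAc group and 1 or 2 in each mPFC group, so it could be tested only through the groups where it was high and no difference is given. Its wild-type NAc values were -3.51, -3.98 and -2.47 in naive and -3.26, -4.71 and -4.50 in stressed samples, and its TLR-DKO NAc values 0.20, -1.75 and -2.06 and -2.60, -1.76, -1.64 and -0.68. The stress difference of Psmd5 was -2.09 in wild-type NAc, its genotype difference in stressed NAc was 1.95, and its interaction there was 2.98 ± 1.54 (SE) (adjusted p = 1.00, limma). Psmd9 had a genotype difference of -1.55 ± 0.72 (SE) in stressed mPFC (adjusted p = 0.786, limma), which was -0.74 without the outlying wild-type array, the highest of the 26, and -0.37 on the other probe. The stress difference of Psmd10 in TLR-DKO mPFC was -2.35 ± 1.02 (SE) (adjusted p = 0.935, limma), but 1.04 on its other probe, with r = 0.17 between the probes, and -1.33 without replicate 2 of the stressed group. Each gene had 2 of 3 stressed TLR-DKO mPFC arrays well above background.

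The tissue forms of the core were at or near background. Psma8, the alpha subunit of testis, was well above background on 5 of 26 arrays (median -4.41, range -5.99 to -1.05), and Psmb11, the beta5t subunit of thymic epithelium, on 0 of 26 (median -4.0, range -6.13 to -2.45). By group, Psma8 ran from -5.90 to -3.25 in wild-type mPFC naive, -5.75 to -3.28 in wild-type mPFC R-SDS, -5.11 to -1.05 in TLR-DKO mPFC naive, -5.99 to -1.60 in TLR-DKO mPFC R-SDS, -5.31 to -2.43 in wild-type NAc naive, -5.73 to -3.37 in wild-type NAc R-SDS, -5.76 to -3.15 in TLR-DKO NAc naive and -5.30 to -1.66 in TLR-DKO NAc R-SDS samples, and every group held arrays on which it was not well above background. Psmb11 ran from -5.97 to -3.32, -4.72 to -2.45, -4.85 to -3.70, -4.37 to -3.08, -6.03 to -3.69, -4.34 to -3.98, -3.97 to -3.70 and -6.13 to -4.02 in the same order. The lowest signal well above background lay between -4.36 and -2.45, depending on the array.

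The averages over groups had the narrowest intervals. They bound only the average, in which differences of opposite sign cancel, and not the change in a single pair of groups. For the averaged stress effect the 95% interval stayed within a log2 difference of 1 in either direction, a 2-fold change, for 24 of the 45 genes, for the genotype effect for 26 and for the region effect for 23. In the 4 single stress comparisons this held for 0, 2, 1 and 2 genes, in the order wild-type mPFC, TLR-DKO mPFC, wild-type NAc and TLR-DKO NAc, with a median half-width of 1.37 to 1.47. The averaged stress effect was -0.55 ± 0.27 (SE) with an interval of -1.12 to 0.02 for Psmb8, 0.06 ± 0.22 (SE) with -0.40 to 0.52 for Psmb9, -0.21 ± 0.21 (SE) with -0.64 to 0.23 for Psmb5, -0.21 ± 0.27 (SE) with -0.79 to 0.36 for Psmb6 and -0.16 ± 0.32 (SE) with -0.82 to 0.50 for Psmb7. So a 2-fold change of the average was outside the interval of every catalytic gene but Psmb8, whose interval reached just past it on the low side. The averaged genotype effect was 0.38 ± 0.27 (SE) for Psmb8, 0.12 ± 0.22 (SE) for Psmb9 and 0.06 ± 0.24 (SE) for Psmb10, with intervals within 2-fold for all 3.

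The median over the 45 genes followed that of all genes only in part. It was 0.20 for stress in wild-type mPFC (all genes 0.17), where quantile normalization gave -0.04 (all genes 0.02), -0.24 in TLR-DKO mPFC (-0.05), -0.16 in wild-type NAc (0.06) and -0.22 in TLR-DKO NAc (-0.02). Above 0 were 26 of 45, 15 of 45, 19 of 45 and 17 of 45 genes in that order. For genotype the medians were 0.16 in naive mPFC (all genes 0.00), -0.37 in stressed mPFC (-0.24), 0.11 in naive NAc (-0.06) and 0.19 in stressed NAc (-0.11). The median of the interaction in the mPFC was -0.47 (all genes -0.23), but only -0.09 after quantile normalization, and in the NAc it was 0.19 (all genes -0.07). The averaged effects had medians of -0.11 for stress, 0.06 for genotype and -0.08 for region.

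**Figure D5:**
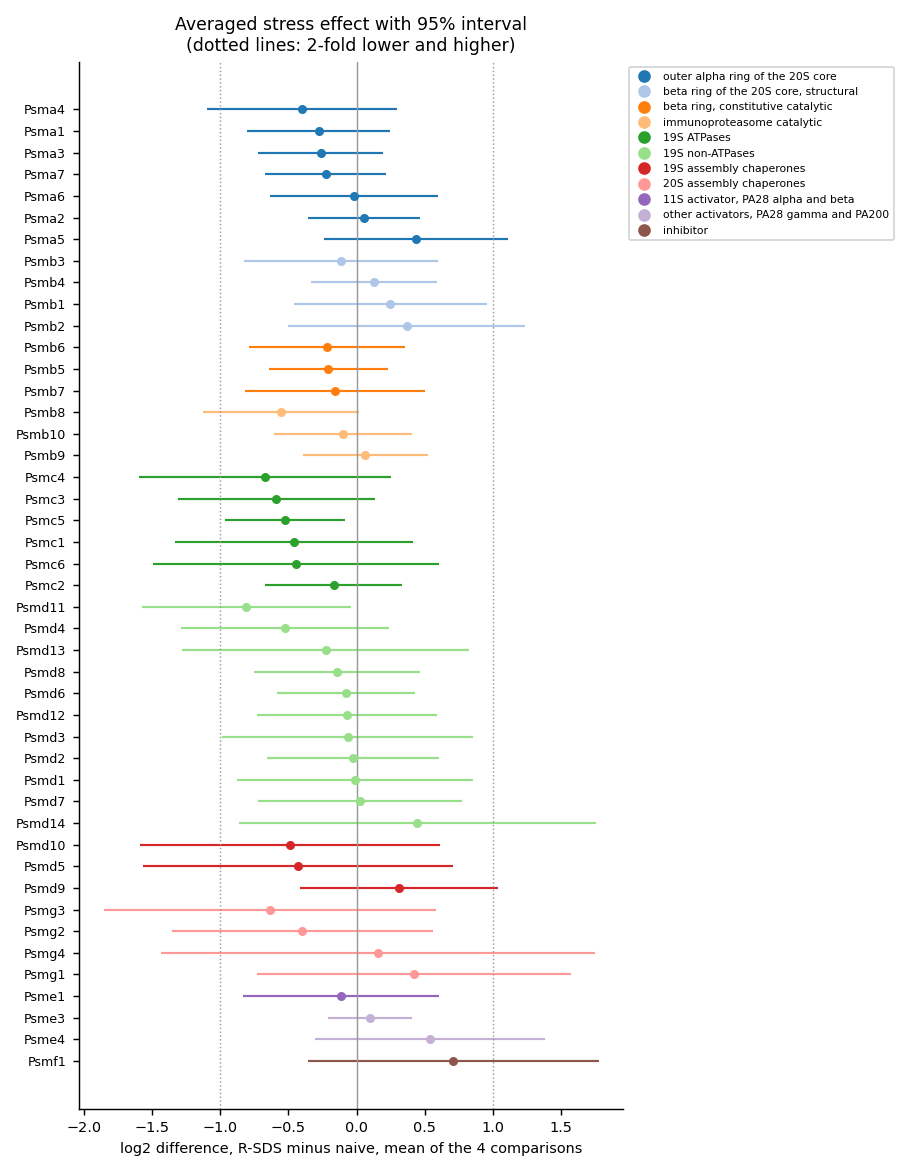
Averaged log2 difference between R-SDS and naive samples (x) with its 95% interval for each of the 45 genes (y), coloured by role. Dotted lines mark a 2-fold change. All 6 ATPases are below 0, and the intervals of 24 genes stay between the dotted lines.

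The proteasome genes shared little variation over the 26 arrays. The median Pearson r over the 990 pairs was 0.04 (0.03 after group means were removed), and within the 19S cap it was 0.09 over 136 pairs. Among the immunoproteasome genes r was 0.11 for Psmb8 with Psmb9 (Spearman 0.23), -0.31 for Psmb8 with Psmb10 (-0.29) and -0.19 for Psmb9 with Psmb10 (-0.28). The highest r of any pair was that of Psme1 and Psmd4, 0.91, and it was 0.47 within scan day 1 and 0.58 within day 2. These are descriptions without a test, since arrays of a group and a day share their source. The SD between arrays of a group had a median of 0.89 over the 45 genes and 0.76 over all genes. It was 0.82 for the 35 genes well above background everywhere and 1.39 for the other 10.

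The genes whose pattern over the 26 arrays was most like that of each immunoproteasome gene were ranked by r among all genes tested. For Psmb8 the 10 highest had r of 0.64 to 0.70 and held 6 genes with a RefSeq name, among them Slc43a2, F11r, Poldip3, Fam120a and Trnt1. For Psmb9 they had 0.64 to 0.72, with 7 named, Cul4b, Csnk2a2, Ola1, Apbb2, Thumpd1, Mdm1 and Dhrs7. For Psmb10 they had 0.60 to 0.69, and all 10 were named, Tmem263, Nbdy, Lrrc51, B9d2, Mrc1, Eri1, Pip4k2c, Acad8, Rbm14 and Lyve1. None was another proteasome gene. Mrc1 and Lyve1 in the last set are markers of perivascular macrophages, and the summed level of all 8 such markers had r = 0.35 with Psmb10 (Spearman 0.39), 0.35 within mPFC, 0.01 within NAc, 0.67 on day 1 and 0.15 on day 2. Cd163, Lyve1 and F13a1 could be tested only through mPFC groups, so the signs of the 8 markers in the region effect are not counted. The part of these markers in the Psmb10 values was not tested. Tap1, which shares its promoter window with Psmb9, had r = 0.23 with it, and the other transporter gene, Tap2, had 0.37 with Psmb9 and 0.18 with Psmb8.

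Around the proteasome, the genes that carry the interferon signal to the immunoproteasome were all measured (12 of 12) and 0 of 12 were called in any of the 13 comparisons by limma, with 0 or 1 of them at an unadjusted p under 0.05 in each. Above 0 after R-SDS were 8 of 12 in wild-type mPFC, 5 of 12 in TLR-DKO mPFC, 4 of 12 in wild-type NAc and 4 of 12 in TLR-DKO NAc. In the order wild-type mPFC, TLR-DKO mPFC, wild-type NAc and TLR-DKO NAc, the stress differences were 0.65, -0.26, -0.64 and -0.37 for Irf1, a transcription factor of that signal. Of the MHC class I processing genes 16 of 18 were measured, and 0 were called in any comparison by limma, with 0 to 3 at an unadjusted p under 0.05. Their median in naive mPFC was 0.62 higher in TLR-DKO than in wild-type samples, with 11 of 16 above 0, and -0.41 after R-SDS in TLR-DKO mPFC, with 5 of 16 above 0. Scan day called 7 of these 16 genes, 5 of them higher on day 2, and with scan day in the fit the medians were 0.37 (11 of 16 above 0) and -0.12 (4 of 16). In the same order the stress differences were 0.44, -0.15, 0.12 and -0.06 for B2m (the light chain of MHC class I), 0.51, -0.44, -0.38 and 0.48 for Tap2 and 0.01, 0.10, 0.57 and 0.12 for Nlrc5, the transactivator of MHC class I genes. None of the 3 stressed wild-type mPFC arrays had Tap1 well above background, and its other stress differences were -0.97, 0.04 and -0.09.

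Of 29 partners and regulators of the proteasome outside the Psm names, 26 were measured and 1 was called in 1 comparison. Pomp, the maturation protein that brings the beta subunits together, was lower in the NAc than in the mPFC, with a difference of -0.79 ± 0.14 (SE), adjusted p = 0.0137 (limma). Its group means in the mPFC were 5.24 ± 0.33 (SD, n = 3) in wild-type naive, 5.47 ± 0.46 (SD, n = 3) in wild-type R-SDS, 5.58 ± 0.23 (SD, n = 4) in TLR-DKO naive and 4.96 ± 0.31 (SD, n = 3) in TLR-DKO R-SDS samples, and in the NAc 4.50 ± 0.17 (SD, n = 3), 4.34 ± 0.13 (SD, n = 3), 4.64 ± 0.33 (SD, n = 3) and 4.64 ± 0.28 (SD, n = 4). The call was lost with slide as a random block (adjusted p = 0.362), since slides hold 1 region each, and when the probes of the gene were averaged (-0.28, adjusted p = 0.306). Among the perivascular macrophage markers, Cd163, Lyve1 and F13a1 could be tested only through mPFC groups, so no count of the set between regions is given. The part of these markers in the Pomp difference was not tested. The stress difference of Pomp was -0.62 in TLR-DKO mPFC (adjusted p = 0.943, limma). Nfe2l1 (Nrf1), which drives proteasome genes when the protease is blocked, was well above background on 18 of 26 arrays. Its values were -3.68, -4.51 and -2.45 in stressed wild-type NAc, where 1 of 3 arrays was well above background, and -2.40, -0.81, -1.71 and -2.05 in stressed TLR-DKO NAc, where all 4 were, so no difference is given.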

How the data were processed

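Each of the 26 samples was hybridised to 1 array in 1 colour (Cy3), and the samples fall into 8 groups of 3 or 4. Per the file headers, spots were read with Agilent Feature Extraction 11.0.1.1, and the deposited processed signal is an intensity after background subtraction by that software, with no normalization between arrays. The deposited value table is on the log2 scale; set against the scanner intensities, each of its columns followed the array's own log2 signal with r = 1.00, and its medians ran from -2.90 to -2.20. Its centring is not stated in the sources used here. Flags of spots above background are those of the file headers' software.

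Control spots and outlier spots were left out, spots of a probe were averaged, and log2 of the processed signal was taken relative to the array's 75th percentile. Probes were named by matching their transcript accession to RefSeq. For each of 24738 genes the brightest probe that cleared background in 3 or more arrays of a group was kept. The headers name an older build than the RefSeq tables, so coordinates come from RefSeq alone. limma 3.58.1 (R 4.3.3) fitted 8 group means to all 26 arrays, with Benjamini-Hochberg adjustment over all genes and a threshold of 0.05, and was tested on simulated data with 200 changed genes. Array number limits the precision, and 0 spots were saturated.

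Values in every array were set for the catalytic genes, Psme1, Psme4 and Psmf1 (by group range for Psma8 and Psmb11), and for each comparison the 3 proteasome genes of smallest p were named. Outside the proteasome, genes of the 3 pathway lists past the threshold, 8 fixed genes and the 10 genes of highest r with each immunoproteasome gene were to be named, of which 2 are not reported here. The genes, lists and rules were chosen with earlier results of these data known. The normexp correction on median signals, the comparison of scan days, the list medians with scan day in the fit, the range of every gene over left-out arrays and the signs of 2 role sets under other scalings were added after the values were seen.

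Alternatives were other normalizations and background, filters, probe rules, slide, scan day or replicate number as a block, array weights, a robust fit, smaller fits, the deposited log2 table and leaving out each array. Within a region, same-numbered samples of different groups did not deviate together (r from -0.140 to 0.258), so the replicate numbers were not taken as pairs. Same-numbered mPFC and NAc samples of a group were not compared. The check thus cannot tell whether they came from the same mice, and the region effect took them as separate samples. Each sample is a pool of mice, no mouse is tied to 2 samples in the labels, and p-values measure only the spread between these pools.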

Additional observations from a re-analysis of the deposited data

Results flagged for a closer look

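Of 24 sets of 4 arrays examined for a sample far from the others (10 genes, the balance of the catalytic genes and the median of all 45, each in the 2 groups of 4), 2 held one, and chance gives about 1 in 20. Psmb10 on replicate 3 of TLR-DKO NAc R-SDS was 2.89, above the other 3 arrays of that group at 2.17 to 2.25. Psmb5 on replicate 4 of TLR-DKO mPFC naive was 1.65, below the other 3 arrays at 2.70 to 2.90, and this array was also the lowest of its group for Psmb7, Psmb9 and Psmb10 and the highest for Psmb8.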

How the results depend on the processing

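No proteasome gene passed an adjusted p of 0.05 in limma under any of the 330 alternatives over the 13 comparisons, and the median change of the 45 genes stayed within 1 SD of its value in 329 of 330. The exception was the mPFC interaction after quantile normalization, -0.0941 in place of -0.47, and the cause was not tested. The SD of the median was 0.348, larger than most of these medians, so a median could change sign within it. The wild-type mPFC stress median, 0.196, was -0.0354 under quantile normalization. The balance of immunoproteasome and constitutive genes stayed within 1 SD in 66 of 66. Single genes changed sign without a call in 228 of 4059. Pomp alone lost a call (adjusted p = 0.362 when slide was a random block, 0.306 over its probes). With the replicate number as a block, the NAc interaction median was 0.0231 in place of 0.19 and 5 genes in place of 3 had an unadjusted p under 0.05 in the mPFC interaction, with no call changed. The scan day difference called 8 to 10 genes. The planned normexp correction on mean signals was not run, since the files used here hold median signals. Dim genes (10 of 45 not above background everywhere) carry the widest spread, and 3 or 4 arrays a group limit each comparison.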

Other observations

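Where a proteasome gene had more than 1 probe past the limit (10 genes), the probes followed each other to very different degrees over the 26 arrays, from r = 0.99 for Psmc2, 0.89 for Psmg1 and 0.71 for Psmc1 down to 0.17 for Psmd10 and -0.11 for Psme4. In wild-type mPFC after R-SDS the probes of 3 of the 10 genes had opposite signs, in TLR-DKO mPFC those of 2, and in naive mPFC between genotypes those of 4.

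Levels of other cell types' markers set a frame for the sorted cells. Of 7 monocyte and neutrophil markers 2 were bright enough to test, of 7 T, NK and B cell markers 5, of 6 endothelial and mural markers 2, and all 8 of the dendritic and MHC class II set. Of 6 neuron markers 4 were, with sums of 4.79 to 6.82 per array, the highest on replicate 3 of wild-type mPFC R-SDS. Snap25, at a mean level of 5.35, made up most of these sums. Tubb3, Rbfox3 and Nefl had means of -0.46, -2.26 and -3.17, and Syt1 and Stmn2 were not bright enough to test. All 5 oligodendrocyte markers summed to 3.39 to 4.90 and all 5 astrocyte markers to 0.40 to 3.97, so RNA of other brain cells was also measured. In the region effect Cldn5, an endothelial junction gene, passed the threshold of limma (adjusted p = 0.0458). It was dim, with a mean of -2.99, and well above background on 19 of 26 arrays. In each naive NAc group that held for 1 of 3 arrays, against all naive mPFC arrays, so little can be read from that p. Fcrls, a microglia marker, passed the threshold in the averaged genotype effect (adjusted p = 0.0315, limma). F13a1, a coagulation factor gene of border macrophages, had an adjusted p of 0.0122 (limma) in the region effect. It cleared background in 3 or more arrays of a group only in mPFC groups. The filter thus kept it only through the region where it was high, so nothing is read from that p.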
